A study of Mus musculus with 36 samples.

Results

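LIF is a cytokine that keeps mouse embryonic stem cells (mESCs) self-renewing, and its signal runs from the cell surface to the nucleus through a short chain of proteins. LIF binds LIFR, which pairs with gp130 (the product of Il6st). The Janus kinase JAK1, bound to the receptor, then phosphorylates STAT3, and STAT3 enters the nucleus and switches on target genes. Among these are Socs3, whose product shuts the receptor down again, the IkB-family coactivator Bcl3 and kinases of the PIM family. The same receptor also feeds the ERK kinases through MEK, a branch that pushes mESCs towards differentiation.

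The genes described are 10 members of this chain, listed by name among the 49671 genes of the count table. They are the receptor subunits Lifr and Il6st, the kinase Jak1, the transcription factor Stat3, the feedback inhibitors Socs2 and Socs3, and the targets Bcl3, Pim1, Pim2 and Pim3. The members were followed through 11 groups of cultures. All cells were mESCs given as 129m wt, a single wild-type background, so differences between backgrounds are not covered. They were grown on fibronectin-coated StemBond hydrogels, a polyacrylamide material to which the matrix protein is bound covalently, in a soft or a stiff form, or on tissue culture plastic. In serum + LIF, both gels were collected at 24 h and at 48 h, and plastic at 48 h. The gels were also collected at 48 h in serum alone, with PD03 and with LIF and PD03 together, where PD03 is an inhibitor of MEK. Serum was in every medium, so no group was free of serum factors. There were 6 libraries of soft gels in serum + PD03 and 3 in every other group. Only RNA was measured in these libraries, so receptor protein, kinase activity and STAT3 phosphorylation are not covered.

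Libraries held 10405696 to 26635239 counts. All 10 members passed the filter on low counts, together with 17702 genes in all, and the lowest count of any member in any library was 201, for Socs2. The pluripotency markers Pou5f1, Sox2, Nanog, Sall4, Zfp42 and Esrrb summed to 2630 to 4442 CPM (read counts scaled to a fixed library total) per library. The 4 endoderm markers summed to 8.42 to 20.9 CPM and the 3 trophectoderm markers to 7.32 to 15.7 CPM. The 7 fibroblast markers summed to 22 to 90.7 CPM, while Lum stayed at 0.190 CPM or below. Col1a1 made up most of that sum on average, at 35.1 CPM, with Thy1 next at 6.84 CPM. Pools, the identifiers shared by samples in the labels, coincided with the substrate in nearly all libraries at 48 h.

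Socs3 was the member with the largest change with LIF on stiff gels, with and without PD03, and on soft gels without PD03. It was also the only one of the 9 members searched with the STAT binding motif in the promoter window, so that stretch is shown. The motif searched was TTCNNNGAA, which reads the same on both strands. It lay at position -154 from the RefSeq start of Socs3. The stretch is chr11:117969452-117969616 of GRCm38.p6, minus strand, within the annotated span of the gene but in none of its exons (sequence from RefSeq, motif in capitals).
Socs3: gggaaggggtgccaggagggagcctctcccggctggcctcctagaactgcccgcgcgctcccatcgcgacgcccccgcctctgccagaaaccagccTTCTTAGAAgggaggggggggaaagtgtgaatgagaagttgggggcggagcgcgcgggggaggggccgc
Promoters of 250 bases before to 50 after a start were found for 9 of the 10 members (all but Socs2), 11 promoters in all. The motif was in 1 of these 11, and in 2726 of 32851 promoters overall (8.3%). A match of letters is a description and not a binding site.

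The members lie on 8 chromosomes. Lifr spans chr15:7090614-7197489 and Pim3 lies on the same chromosome at chr15:88862186-88865726, both on the plus strand. Stat3 is at chr11:100885098-100939540 and Socs3 at chr11:117966079-117970047, both on the minus strand. Il6st is at chr13:112464070-112510086 (plus), Jak1 at chr4:101152367-101265282 (minus), Socs2 at chr10:95385362-95417180 (minus), Bcl3 at chr7:19808462-19822770 (minus), Pim1 at chr17:29490753-29496112 (plus) and Pim2 at chrX:7878262-7883432 (plus). Exons of Pim1 share 488 bp with the antisense gene Gm26885, those of Bcl3 share 161 bp with the antisense gene Gm16175, those of Stat3 share 72 bp with Stat5a and those of Jak1 share 4 bp with Raver2, each on the other strand. Since the strand setting of the counting is not given, reads of these shared bases cannot be told apart.

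Compared per length of annotated exons and averaged over the groups, the targets and Socs3 stood above the receptor, Jak1 and Stat3 mRNAs. Levels were taken as RPKM, the CPM divided by the merged length of all annotated exons of the gene in kilobases. That is not the length of a single transcript, so the order depends on the annotation. Averaged over the 11 groups, Bcl3 stood at 43.1 RPKM, Pim3 at 35.2, Pim1 at 29.5, Socs3 at 24.0 and Pim2 at 22.2. Lifr stood at 17.7 RPKM, Il6st at 10.3, Stat3 at 9.85, Jak1 at 9.51 and Socs2 at 4.62. This order did not hold in each group. In the 4 groups with PD03, Pim2 had group means of 7.53 to 8.68 RPKM, below those of Lifr, Il6st, Jak1 and Stat3 in the same group, and in stiff serum + PD03 Socs3 was below Lifr. The members varied by very different amounts across groups. Lifr and Il6st had a ratio of highest to lowest group mean of 1.29 and 1.25, whereas Pim2 had 5.84 and Socs2 4.34. Pim3 had group means from 74.1 to 95.7 CPM, and each neighbour in the order of its 11 group levels overlapped the next over libraries. The ends of that order did not overlap, at 95.1 to 96.6 CPM in stiff serum + LIF and 72.7 to 75.3 CPM in stiff serum + PD03.

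**Figure D1:**
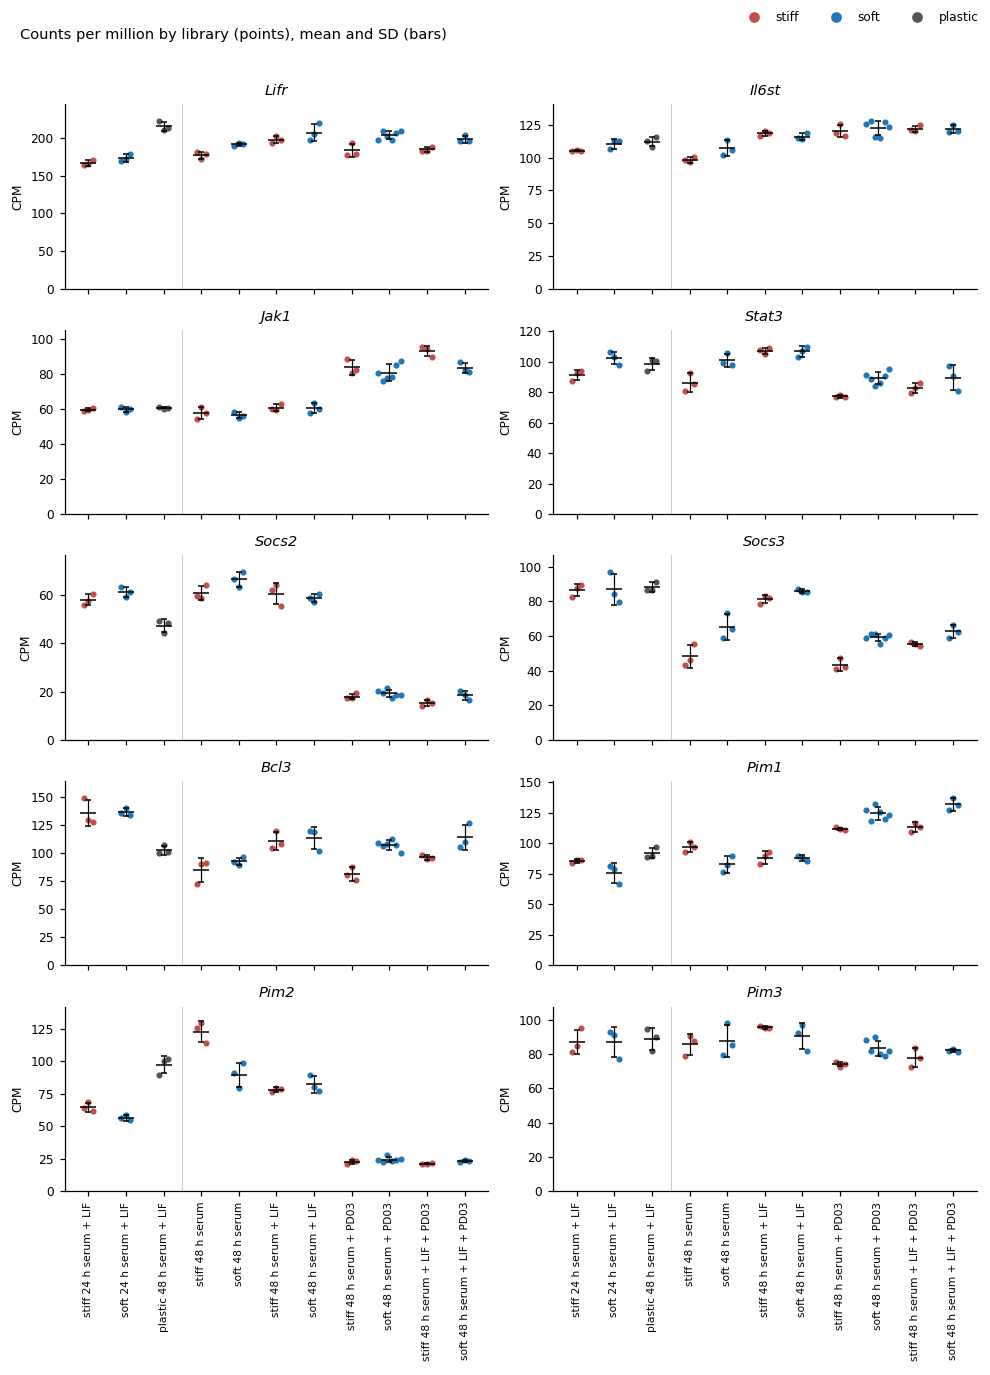
CPM of each member (y axis, starting at 0) in the 11 groups (x axis), with a point per library in red for stiff, blue for soft and grey for plastic, and black bars for the mean and SD. Socs3 is lowest in stiff serum and stiff serum + PD03, while Socs2 and Pim2 are low in all groups with PD03.

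The receptor mRNAs were present at similar levels everywhere. Lifr was lowest on stiff gels at 24 h (167 ± 4.04 CPM, SD, n = 3) and highest on plastic (216 ± 6.22 CPM, n = 3), and 9 of the 10 pairs of neighbouring groups in the order of its levels overlapped over libraries. Il6st was lowest in stiff serum, where the libraries gave 98.0, 96.4 and 100.5 CPM. It was highest in soft serum + PD03, at 115 to 128 CPM with a median of 125. In the order of the Il6st levels only stiff serum stood apart from its neighbour, stiff 24 h. Both receptor mRNAs were detected in every library, also in media without LIF.

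On the same substrate and with the same LIF, Jak1 was higher and Stat3 lower with PD03 than without it. Jak1 read 56.4 to 60.8 CPM in the group means of all 7 groups without PD03 and 80.7 to 93.0 CPM in the 4 with it, and no library of the first 7 reached one of the other 4. Stat3 was highest in serum + LIF at 48 h, with 108, 105 and 109 CPM on stiff and 103, 107 and 110 CPM on soft gels. It was lowest in stiff serum + PD03, with 77.1, 78.3 and 76.6 CPM. Across substrates the Stat3 levels crossed, since stiff serum (86.3 CPM on average) lay below soft serum + PD03 (89.4 CPM).

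The question the media pose is how much of the response to LIF depends on the substrate and on MEK. The LIF effect was taken as serum + LIF against serum, and as serum + LIF + PD03 against serum + PD03, at 48 h. Without PD03 on stiff gels, LIF raised 4 of the 10 members (Socs3, Bcl3, Stat3 and Il6st) and lowered 1 (Pim2), where 1.41% of all genes tested passed (249 genes). On soft gels 1 member (Socs3) rose, where 0.0169% passed (3 genes). Both groups of the soft comparison without PD03 came from 1 pool, as did both of the stiff comparison with PD03. With PD03 no member passed on soft gels, where 0.107% of all genes did, and Socs3 rose on stiff gels, where 0.514% did.

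Socs3, the feedback inhibitor, gave the clearest reading. In stiff serum its libraries were at 43.1, 46.3 and 55.6 CPM, and in stiff serum + LIF at 78.6, 83.1 and 81.9 CPM. The groups did not overlap, and the change was 0.76 ± 0.07 on the log2 scale (SE, a 1.69-fold rise, edgeR adjusted p = 1.35e-09). In soft serum the libraries were at 58.8, 73.2 and 63.9 CPM, and in soft serum + LIF at 87.4, 85.4 and 85.3 CPM. Again the groups did not overlap, and the change was 0.40 ± 0.07 (1.32-fold, edgeR adjusted p = 0.0142). With LIF, then, soft and stiff gels were near each other, and without LIF the soft level lay above the stiff one. The soft call was lost when library 1 or 2 of serum + LIF or library 1 or 3 of serum was left out (adjusted p up to 0.196).

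With PD03, Socs3 read 40.8, 47.5 and 42.1 CPM in stiff serum + PD03 against 56.6, 55.3 and 54.1 CPM once LIF was added. Every library with LIF was above every library without, and the change was 0.34 ± 0.07 (1.27-fold, edgeR adjusted p = 0.0115). It was lost when library 1 or 2 of serum + LIF + PD03 or library 1 or 3 of serum + PD03 was left out (adjusted p up to 0.104). On soft gels the 6 libraries in serum + PD03 ran from 55.4 to 61.3 CPM with a median of 59.5, and those in serum + LIF + PD03 were at 58.9, 66.6 and 62.4 CPM. These overlapped, with a change of 0.08 (95% interval -0.04 to 0.21, edgeR adjusted p = 0.781).

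Pim2, a serine/threonine kinase that promotes survival, moved the other way. Its libraries were at 125, 129 and 114 CPM in stiff serum, the highest of any group, and at 76.3, 79.6 and 78.7 CPM in stiff serum + LIF. No libraries overlapped, and the level fell by 0.65 on the log2 scale (SE 0.07, fold 0.636, edgeR adjusted p = 1.9e-09). On soft gels it read 90.9, 79.7 and 98.3 CPM in serum and 89.7, 80.2 and 77 CPM in serum + LIF. These groups overlapped, with a change of -0.12 (95% interval -0.25 to 0.01, adjusted p = 0.692). Under PD03 the Pim2 libraries of all 4 groups lay between 20.5 and 27.4 CPM, and the LIF change was -0.09 on stiff and -0.08 on soft, neither past the threshold. Pim2 is listed here among the targets, and on stiff gels it was lower with LIF.

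Since these are bulk cultures, fewer cells of a type and less RNA per cell cannot be told apart in any of these levels.

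Among the remaining members, LIF on stiff gels without PD03 moved 3. Stat3, the factor itself, read 80.9, 92.8 and 85.2 CPM without LIF and 108, 105 and 109 CPM with it, a change of 0.32 ± 0.06 (edgeR adjusted p = 0.000427). The gp130 gene Il6st rose by 0.27 ± 0.05 from the libraries given above to 117, 120 and 119 CPM (edgeR adjusted p = 0.000449). Bcl3 went from 72.7, 90.5 and 91.1 CPM to 105, 120 and 108 CPM, a change of 0.40 ± 0.07 (edgeR adjusted p = 0.000527). For each of these 3 genes, chosen because they passed, all libraries with LIF lay above all without, and the share of all genes so separated was not counted. The LIF calls for Socs3, Pim2, Stat3 and Il6st on stiff gels without PD03 held under every alternative checked. With the pool as a term, calls of single genes were checked only at the assignments with the lowest and highest change. The Bcl3 call was lost without library 1 of stiff serum, the lowest one (adjusted p = 0.0657). Lifr differed by 0.16 ± 0.04 without passing (adjusted p = 0.0624), as did Pim3 by 0.16 and Pim1 by -0.13.

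On soft gels without PD03, Bcl3 read 92.2, 89.1 and 96.2 CPM in serum and 120, 119 and 102 CPM in serum + LIF. Those libraries did not overlap, yet the change of 0.29 ± 0.07 missed the threshold over all genes (edgeR adjusted p = 0.163), while DESeq2 passed it. At an unadjusted p below 0.05 there were 5 of 10 members in this comparison, 8 on stiff gels without PD03, 4 on stiff with PD03 and 0 on soft with PD03, where DESeq2 also called 0. Of the 17702 genes tested, 1345, 2032, 1533 and 1430 were below it in the same order. The median change of the 10 members was 0.16 on stiff and 0.09 on soft without PD03, and 0.05 and -0.0038 with PD03. Over all genes tested these medians were 0.0026, -0.0011, 0.0022 and -0.0050.

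**Figure D2:**
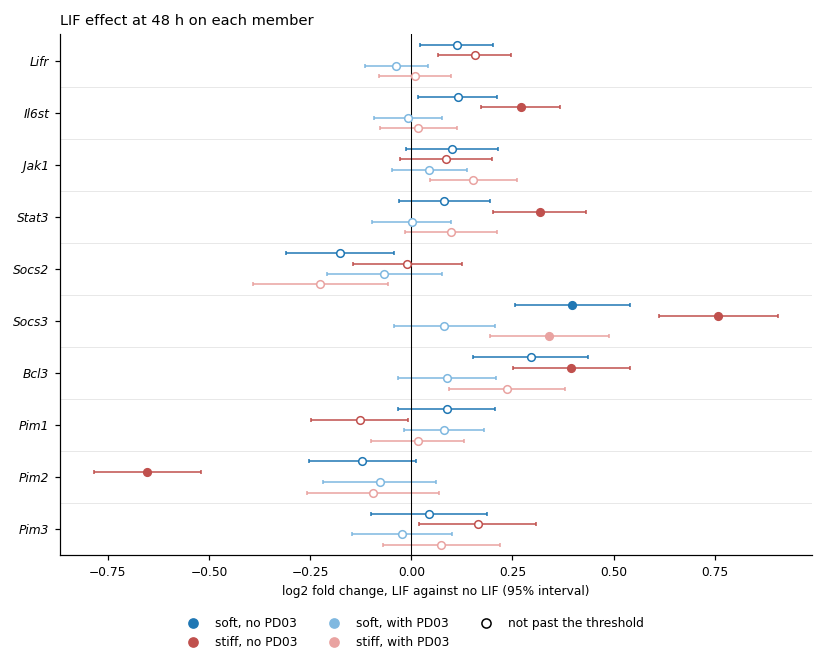
Log2 fold change of each member with LIF against without LIF at 48 h (x axis) on soft (blue) and stiff (red) gels, with PD03 in the paler shade, as estimates with 95% intervals. Filled points passed the threshold, 5 of them on stiff gels without PD03, led by Socs3 at 0.76 and Pim2 at -0.65.

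Whether the LIF effect itself differed between settings was tested as a difference of differences. Without PD03, 1 member passed for soft against stiff, where 0.0847% of all genes did. That was Pim2, whose LIF effect was -0.12 on soft and -0.65 on stiff gels, a smaller fall on soft gels. The difference was 0.53 ± 0.09 (95% interval 0.34 to 0.72, edgeR adjusted p = 0.00612). DESeq2 gave no adjusted p for Pim2 here. The call was lost with the 4 groups alone, with the pool as a term in its lowest assignment and without library 1 of stiff serum + LIF, library 2 of stiff serum or library 1 of soft serum + LIF, over which adjusted p rose to 0.108 at most. For Socs3 the difference was -0.36 (95% interval -0.56 to -0.16) and missed the threshold (adjusted p = 0.167), so its LIF effect is not shown to be smaller on soft gels. With PD03, 0 of 10 members passed for soft against stiff by edgeR and by DESeq2, with 1 at an unadjusted p below 0.05, where 0.00565% of all genes passed. At that unadjusted p there were 830 of the 17702 genes tested.

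PD03 changed the LIF effect of 3 members on stiff gels, where 1.09% of all genes passed. The LIF effect on Socs3 was smaller with PD03 by 0.42 on the log2 scale (difference -0.42, 95% interval -0.63 to -0.21, edgeR adjusted p = 0.0267) and that on Il6st was also smaller (difference -0.25, 95% interval -0.39 to -0.12, edgeR adjusted p = 0.0491). For Pim2 the LIF effect was -0.65 without and -0.09 with PD03, a difference of 0.56 (95% interval 0.35 to 0.77, edgeR adjusted p = 0.00136). With any 1 of the 12 stiff libraries left out, 1 or 2 of the 3 calls remained, and the call for Pim2 remained in each case. The Socs3 and Il6st calls were both lost without any 1 library of serum + LIF or of serum + LIF + PD03. They were also both lost without library 1 or 2 of serum or library 2 of serum + PD03. The Il6st call was lost with DESeq2 size factors and with no filter as well. On soft gels 0 of 10 passed by edgeR and by DESeq2, with 3 at an unadjusted p below 0.05, where 0.0226% of all genes passed. At that unadjusted p there were 1301 of the 17702 genes tested.

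Other genes of the pathway were followed from a list of 45, of which 44 were tested. LIF on stiff gels without PD03 raised 4 of the 44 and lowered 0, where 1.41% of all genes tested passed (249 genes). Tfcp2l1, a naive pluripotency factor known to act downstream of STAT3, read 143, 151 and 156 CPM without LIF and 218, 218 and 207 CPM with it (change 0.52 ± 0.05, edgeR adjusted p = 1.64e-09). Klf4, a reprogramming factor and STAT3 target, read 113, 121 and 124 CPM and then 166, 171 and 156 CPM (change 0.46 ± 0.05, edgeR adjusted p = 2.87e-09). The kinase gene Jak3 and the AP-1 factor gene Junb rose by 0.49 and 0.40 (adjusted p = 0.000249 and 0.0366). In the other LIF comparisons 0 of 44 passed by edgeR, with 8, 4 and 5 at an unadjusted p below 0.05 on soft without PD03, soft with PD03 and stiff with PD03. Of the 17702 genes tested, 1345, 1430 and 1533 were below that unadjusted p. DESeq2 called 3, 0 and 0 of the 44, although it gave no adjusted p for 18, 11 and 7 of the listed genes.

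The LIF effect on Tfcp2l1 was smaller on soft than on stiff gels without PD03 (difference -0.34, 95% interval -0.49 to -0.20, edgeR adjusted p = 0.0375), where 0.0847% of all genes passed. On stiff gels it was smaller with PD03 than without for Tfcp2l1 (-0.44, adjusted p = 9.84e-05) and for Klf4 (-0.44, adjusted p = 2.56e-05), where 1.09% of all genes passed. No other gene of the 44 passed in a difference of LIF effects. Calls of single pathway genes were not followed with a library left out or with the pool as a term. The summed fibroblast markers also differed with LIF on stiff gels, at 45.3 to 52.7 CPM in stiff serum against 31.8 to 39.1 CPM in stiff serum + LIF. In soft serum they were at 22 to 28.9 and with LIF at 24.2 to 29.3 CPM. Of the 5 tested, only Col1a1 passed for LIF on stiff gels without PD03. Of the pluripotency markers, Nanog, Zfp42 and Esrrb were higher with LIF there. On stiff gels the LIF effect on these pluripotency markers was lower with PD03 than without. No marker of either list passed for LIF on soft gels. The part of either list in the LIF results was not tested.

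Ligand mRNAs of the family were scarce. Lif itself was the highest of the 7, with group means from 3.01 to 11.9 CPM. It stood at 3.36 ± 0.362 CPM in stiff serum and 3.01 ± 0.0517 CPM in soft serum (n = 3 each), and its LIF effect passed the threshold in none of the 4 settings by edgeR, with a lowest adjusted p of 0.296, on stiff gels with PD03. The means over groups of the other ligands were 2.05 CPM for Ctf1, 1.06 for Osm, 0.480 for Clcf1, 0.386 for Il11, 0.246 for Cntf and 0.038 for Il6, the one gene that did not pass the filter. Of the other receptor subunits, Cntfr, the receptor for ciliary neurotrophic factor, ranged from 4.22 to 45.1 CPM in the group means. Il6ra, Il11ra1 and Osmr averaged 2.28, 1.88 and 0.944 CPM.

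**Figure D3:**
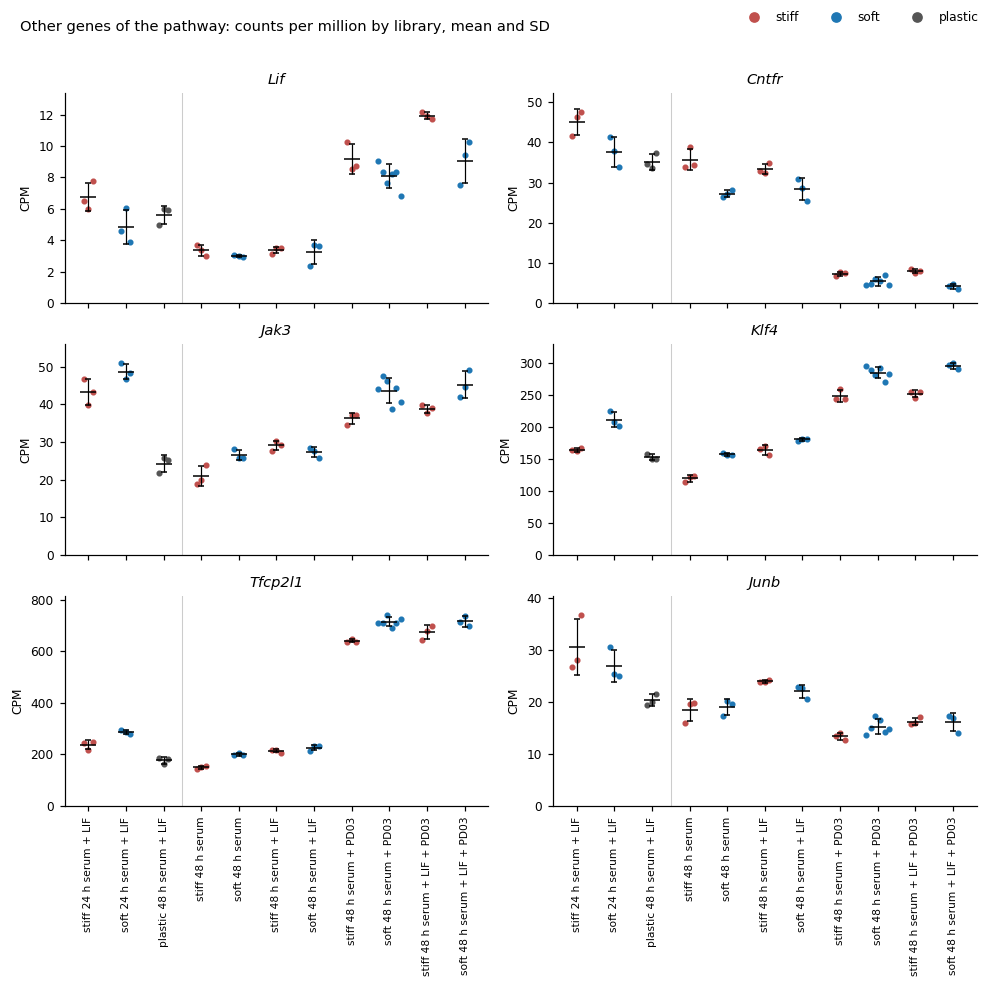
CPM (y axis, starting at 0) of the cytokine gene Lif, the receptor gene Cntfr and the 4 other pathway genes that LIF raised on stiff gels, in the 11 groups (x axis), by library (points) with mean and SD (bars). Lif, Klf4 and Tfcp2l1 are highest and Cntfr lowest in the 4 groups with PD03.

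Soft against stiff was then compared within each medium. In serum + LIF no member passed, at 24 h (where 3.55% of all genes did) or at 48 h (0.78%). DESeq2 also called 0 in both, and 3 and 0 members had an unadjusted p below 0.05, as had 2611 and 1929 of the 17702 genes tested. In serum without LIF, 4 members passed where 4.85% of all genes did. Socs3 was higher on soft gels by 0.44 ± 0.07 (edgeR adjusted p = 2.73e-05) and Stat3 by 0.23 ± 0.06 (adjusted p = 0.00733), while Pim2 was lower by 0.46 on the log2 scale (change -0.46, adjusted p = 1.43e-06), and Pim1 by 0.22 (change -0.22, adjusted p = 0.0141). For each of these 4, chosen because they passed, the soft and stiff libraries did not overlap, and the share of all genes so separated was not counted.

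With PD03 and no LIF, 4 members were higher on soft gels and none lower, where 5.55% of all genes passed. They were Socs3 (0.44 ± 0.07, edgeR adjusted p = 3.25e-06), Bcl3 (0.39 ± 0.06, adjusted p = 1.34e-05), Stat3 (0.21 ± 0.05, adjusted p = 0.00501) and Lifr (0.15 ± 0.04, adjusted p = 0.0116). The 6 soft libraries of Bcl3 ran from 99.6 to 112 CPM with a median of 107, above the stiff ones at 80.6, 87.8 and 75.7 CPM. In serum + LIF + PD03, 3 members were higher on soft gels and none lower, where 7.61% passed. These were Socs2 (0.27 ± 0.08, adjusted p = 0.0276), Bcl3 (0.25 ± 0.07, adjusted p = 0.0189) and Pim1 (0.22 ± 0.06, adjusted p = 0.00788). Pim1 was therefore lower on soft gels in serum and higher in serum + LIF + PD03.

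At 48 h soft and stiff libraries mostly belonged to different pools. With the pool as a term, over the 45 possible assignments, at least 1 member was called in serum, at least 2 in serum + PD03 and in the lowest case 0 in serum + LIF + PD03, where leaving out library 1 of the stiff gels also left 0. Without library 2 of soft serum, 2 of the 4 calls in serum were left. Summed fibroblast markers were lower on soft than on stiff gels in all 5 comparisons, at 29.7 to 41.2 against 66.0 to 76.9 CPM in serum + PD03. Of those tested, only Col1a1 passed in serum + LIF, and only Col1a1 and Col1a2 in the other media. Of the pluripotency markers none was lower on soft gels, and Esrrb was higher except in serum + LIF at 48 h, where none passed. Sox2, Nanog, Sall4 and Zfp42 were higher in some of those comparisons. The part of either list in these differences was not tested. Among the 44 other pathway genes, 3 were higher and 1 lower on soft gels at 24 h, 0 and 0 at 48 h in serum + LIF (5 at an unadjusted p below 0.05, as were 1929 of 17702 genes, and 1 by DESeq2), 6 and 2 in serum, 4 and 1 in serum + PD03, and 3 and 4 in serum + LIF + PD03.

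**Figure D4:**
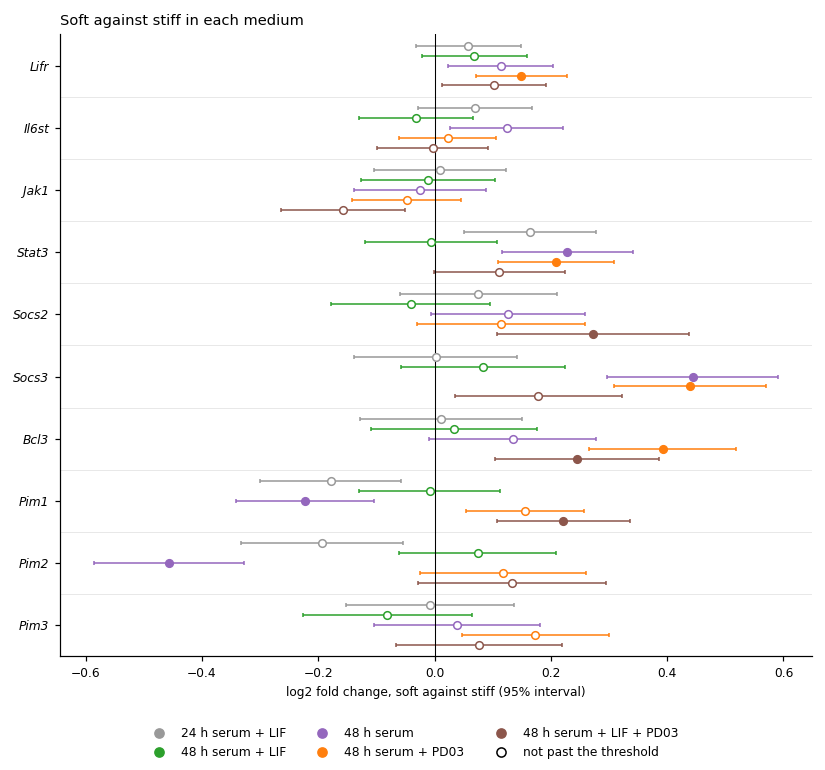
Log2 fold change of each member on soft against stiff gels (x axis) in 5 media and times (colours), as estimates with 95% intervals, filled where past the threshold. No point in serum + LIF is filled, while Socs3 sits at 0.44 both in serum and in serum + PD03.

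The comparisons with the MEK inhibitor held the most genes past the threshold. PD03 changed 9 of 10 members on soft gels without LIF, where 57.5% of all genes passed, and 7 on stiff gels, where 55.8% did. With LIF, 6 members changed on soft gels (54.4% of all genes) and 8 on stiff gels (56.2%). These shares of all genes were so high that the sizes of the changes are given in place of the number of members called. Markers of pluripotency and of other cell types moved with PD03 too. The summed fibroblast markers on stiff gels averaged 48.6 CPM in serum and 72.9 CPM in serum + PD03, and 36.5 CPM in serum + LIF and 87.1 CPM in serum + LIF + PD03. On soft gels they were at 22 to 28.9 CPM in serum and 29.7 to 41.2 CPM in serum + PD03, and at 24.2 to 29.3 CPM in serum + LIF and 27.3 to 40.8 CPM in serum + LIF + PD03. Of these markers Col1a1 and Postn were higher and Thy1 and Dcn lower with PD03 in all 4 settings, and of the trophectoderm markers Cdx2 was higher and Eomes lower in all 4 (edgeR). Of the endoderm markers Foxa2 was lower in all 4, while Gata6 was higher on stiff gels. Of the pluripotency markers Nanog, Sall4 and Esrrb were higher with PD03 in all 4, and none was lower. Their sum averaged 2728 CPM in stiff serum and 3950 CPM in stiff serum + PD03, and 3055 and 4339 CPM on soft gels. The part of any of these markers in the PD03 results was not tested.

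Pim2 and Socs2 fell most. Pim2 dropped from 125, 129 and 114 CPM in stiff serum to 20.6, 23.6 and 22.9 CPM with PD03, a change of -2.45 ± 0.07 (edgeR adjusted p = 1.89e-32). In the other 3 settings its change was -1.83 to -1.89. Socs2, an inhibitor best known for restraining growth hormone signals, dropped from 59.5, 58.9 and 64.3 CPM to 17.2, 17.4 and 19.3 CPM on stiff gels without LIF, a change of -1.77 ± 0.07 (adjusted p = 4.21e-26). Over the other settings the Socs2 change was -1.67 to -1.98. All libraries with PD03 were below all without it on the same substrate for both genes.

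Jak1 rose in all 4 settings, by 0.46 to 0.61, with adjusted p of 4.17e-10 or less (edgeR). Pim1 also rose in all 4, by 0.59 and 0.58 on soft and 0.21 and 0.36 on stiff gels. Its relative Pim2 thus went down where Pim1 went up. Stat3 fell in all 4 settings, by -0.15 and -0.17 without LIF and by -0.25 and -0.37 with LIF on the log2 scale. Socs3 fell with LIF present, by 0.46 on soft (change -0.46, adjusted p = 2.21e-07) and 0.55 on stiff gels (change -0.55, adjusted p = 2.68e-09). Without LIF its change was -0.14 on both, past the threshold on soft gels (adjusted p = 0.0457) and not on stiff (adjusted p = 0.121).

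The receptor genes moved little with PD03. Il6st rose without LIF, by 0.19 on soft and 0.29 on stiff gels (edgeR adjusted p = 8.61e-05 and 8.09e-07), and with LIF the changes of 0.07 and 0.04 did not pass. Lifr rose by 0.09 on soft gels without LIF (adjusted p = 0.0486) and did not pass in the other settings. Bcl3 rose by 0.21 on soft gels without LIF and fell by 0.21 on stiff gels with LIF (change -0.21, adjusted p = 0.0111). Pim3 fell on stiff gels (changes -0.21 without and -0.30 with LIF), and the changes of -0.07 and -0.14 on soft gels did not pass. Of the 44 other pathway genes, PD03 raised 24 and lowered 14 on soft gels and raised 23 and lowered 13 on stiff gels without LIF, and with LIF it raised 19 and 20 and lowered 11 and 13.

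**Figure D5:**
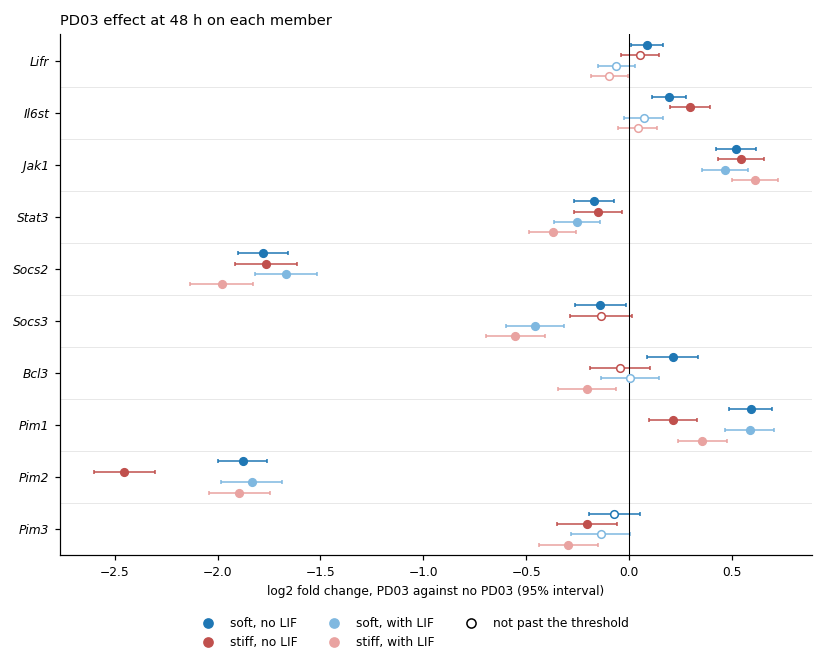
Log2 fold change of each member with PD03 against without it at 48 h (x axis) on soft (blue) and stiff (red) gels, with LIF in the paler shade, as estimates with 95% intervals, filled where past the threshold. Pim2 and Socs2 lie between -1.67 and -2.45, and Jak1 and Pim1 lie above 0 in all 4 settings.

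Against plastic in serum + LIF, 2 members passed on each gel, where 11.8% of all genes passed for soft and 5.54% for stiff gels. Socs2 read 49.2, 44.2 and 48.5 CPM on plastic, 58.6, 57.0 and 60.6 CPM on soft and 61.9, 64.3 and 55.6 CPM on stiff gels. All gel libraries were above all plastic ones, with changes of 0.31 ± 0.07 and 0.35 ± 0.07 (edgeR adjusted p = 0.000983 and 0.000346). Pim2 read 89.6, 100.5 and 102 CPM on plastic and was lower on soft (change -0.24, adjusted p = 0.00985) and on stiff gels (change -0.31, adjusted p = 0.00104). The soft and plastic libraries overlapped for Pim2. With the pool as a term, 0 members were left on either gel in the lowest assignment. The summed fibroblast markers were at 67.6 to 78.9 CPM on plastic, 24.2 to 29.3 CPM on soft and 31.8 to 39.1 CPM on stiff gels, with Col1a1 and Col1a2 lower and Thy1 higher on both gels. The summed endoderm markers were at 8.42 to 10.2 CPM on plastic, 16.2 to 20.9 CPM on soft and 15.2 to 16.8 CPM on stiff gels, with Gata4 and Gata6 higher on both gels. Neither list overlapped between plastic and a gel. Of the pluripotency markers, Sox2, Nanog, Zfp42 and Esrrb were higher on soft gels than on plastic, and Esrrb on stiff gels. The part of these markers in the differences from plastic was not tested. Of the 44 other genes, 8 were higher and 3 lower on soft gels, and 3 higher and 1 lower on stiff gels.

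Between 24 h and 48 h in serum + LIF, 4 members changed on soft gels (24.4% of all genes passed) and 5 on stiff gels (25.6%). Lifr rose on both, by 0.26 on soft and 0.24 on stiff (edgeR adjusted p = 1.96e-05 and 2.91e-05). Pim2 rose on both, by 0.54 and 0.28, while Bcl3 fell on both (changes -0.27 and -0.29, adjusted p = 0.0036 and 0.0012). Pim1 rose on soft gels by 0.22, and Il6st and Stat3 on stiff gels by 0.17 and 0.23. Time and pool coincided on soft gels, and with the pool as a term the members called there were 0 to 2. On stiff gels the summed fibroblast markers were at 49.9 to 56.3 CPM at 24 h and 31.8 to 39.1 CPM at 48 h, with Col1a1 and Col1a2 lower and Thy1 higher at 48 h. On soft gels they were at 23.8 to 34.7 and 24.2 to 29.3 CPM. Of the pluripotency markers, Sox2 and Zfp42 rose and Esrrb fell on soft gels. On stiff gels Pou5f1, Sox2 and Zfp42 rose and Sall4 fell. The part of either list in the changes with time was not tested. Of the other 44 genes, 4 rose and 10 fell on soft gels, and 5 rose and 13 fell on stiff gels.

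Genes whose levels followed a member most closely over the 11 group means of log2 CPM were found by Pearson's r, as a description over groups that share libraries, pools and media. For Socs3 they were Gm10123 (r = 0.926), Zfp961 (0.920) and Ap4s1 (0.889). For Stat3 they were Selenoh (0.954), Parp14 (0.911) and Jmjd8 (0.910). For Lifr they were Zfp936 (0.912), Clgn (0.904) and Zfp35 (0.888).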

How the data were processed

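RNA was sequenced from mESC cultures in 36 libraries. Per the labels, libraries were made with a NuGen kit, reads were aligned to mm10 with STAR 2.5.2a and counted with HTSeq, and DESeq was named for the authors' tests. The study's methods name several kits. The strand setting and the treatment of reads matching several places are not given in the sources used here. The authors deposited raw counts per Ensembl gene (49671 genes) without normalisation, with 10405696 to 26635239 counts per library. Symbols were matched for 49326 of the genes, and positions came from GENCODE M21 (GRCm38).

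Columns of the count table name a group and no replicate, so a library number in the text only names a column of its group. Nothing says whether libraries of a group came from separate cultures, so p-values measure the spread between these libraries, which may be technical. The sample descriptions carry 1 of 3 identifiers, called pools here. Pool 1 held the 24 h and plastic libraries and 1 of 3 stiff libraries in serum + LIF, pool 2 the other stiff libraries and 2 of 6 soft libraries in serum + PD03, and pool 3 the other soft libraries at 48 h.

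Counts were fitted in R 4.3.3 with edgeR 4.0.16, using the quasi-likelihood test, TMM scaling, filterByExpr by group and 1 coefficient per group over all libraries. This left 17702 genes, and p-values were Benjamini-Hochberg adjusted over them, with a threshold of 0.05. Levels are CPM on TMM-scaled library sizes, or RPKM where genes are compared. The same fit was tested on simulated counts for LIF on stiff without PD03 (17154 genes, 100 changed per size), where it recovered 63% of changes of 0.5 log2 and 90% of changes of 1 log2, with 15 false calls among 168. Over 45 replicate pairs the chi-square per gene was 2.22 to 13.4, so every pair differed by more than counting noise. Alternatives were DESeq2 1.42.0, its size factors, no low-count filter, the compared groups alone, each library left out, and the pool as a term over the 45 assignments that the labels allow.

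The 10 genes and all lists were chosen with earlier results of these data known. Of 45 other pathway genes, those past the threshold in a LIF comparison or a difference between LIF effects are named, as are ligands and receptors, and the rest are counted. For Socs3, Stat3 and Lifr, the 3 genes with a mean of at least 5 CPM and the highest Pearson r over the 11 group means of log2 CPM (prior count 2) are named.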

Additional observations from a re-analysis of the deposited data

Results flagged for a closer look

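In 4 results the LIF effect on a member differed between settings past the threshold (edgeR adjusted p). For Pim2 it differed between soft and stiff gels without PD03, by 0.53 on the log2 scale (-0.12 on soft, -0.65 on stiff). On stiff gels it differed between media with and without PD03 for Pim2 by 0.56 (-0.09 with, -0.65 without), for Socs3 by -0.42 (0.34 with, 0.76 without) and for Il6st by -0.25 (0.02 with, 0.27 without). The Socs3 and Il6st differences were lost with several single stiff libraries left out. On stiff gels at 48 h the summed fibroblast markers were at 66.0 to 90.7 CPM with PD03 and at 31.8 to 52.7 CPM without it. The summed pluripotency markers were at 3815 to 3977 CPM with PD03 and at 2630 to 2949 CPM without it. The part of either list was not tested. In the group with 6 libraries, no member had a library far from the others by Dixon's test.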

How the results depend on the processing

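No paired analysis was possible because the columns of the count table carry no replicate numbers. Of 65 member changes past the threshold, 33 stayed past it under every alternative checked, and of 145 others, 12 passed under at least 1. For these the pool term was checked only at the assignments with the lowest and highest change. Scaling with DESeq2's size factors moved no count of members by over 1.5 times. For LIF on soft gels without PD03, the count of members (1) was 2 with DESeq2 and 2 with no filter, and 0 to 2 with a library left out, and the count of genes (3) was 39, 46 and 0 to 16. For LIF on stiff gels without PD03 the count of genes (249) was 381 with no filter, 109 in the lowest pool assignment and 118 to 231 with a library left out. For LIF on soft gels with PD03 the count of genes (19) was 38 with DESeq2, 73 with no filter, 7 in the lowest pool assignment and 3 to 22 with a library left out. For LIF on stiff gels with PD03, members (1) were 2 with no filter, 2 with the compared groups alone and 0 to 1 with a library left out, and genes (91) were 141, 417 and 24 to 82.

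For the soft minus stiff difference of LIF effects without PD03, members (1) were 0 with the compared groups alone and in the lowest pool assignment, and 0 to 2 with a library left out. For the PD03 difference on stiff gels, members (3) were 1 in the lowest pool assignment and 1 to 2 with a library left out. In the lowest pool assignment, soft against stiff gave 1 member in serum (4), 2 with PD03 (4) and 0 with LIF and PD03 (3), and with a library left out 2 to 4 in serum and 0 to 2 with LIF and PD03. Against plastic, soft gels (2) gave 0 in the lowest and 1 in the highest assignment and 1 to 2 with a library left out, and stiff gels (2) gave 0 in the lowest. For 48 h against 24 h, soft gels (4) gave 0 in the lowest and 2 in the highest, and stiff gels (5) gave 2 in the lowest. A change of sign of a called value arose in 2 results, both with the pool as a term: Socs2 on soft gels against plastic at -0.026 and Pim1 on soft gels at 48 h against 24 h at -0.011. The cause of these changes was not tested. The lowest count of a member in any library was 201, while ligands near 1 CPM rest on few reads. Whether depth limited the calls was not tested. DESeq2 gave no adjusted p for 5 members in the soft minus stiff difference of LIF effects without PD03, so no count is given there.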
